A study of Mus musculus with 6 samples.

Results

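The mitochondrial respiratory chain ends with 3 enzymes, and their genes were followed here in natural killer (NK) cells of the mouse spleen. Complex III takes electrons from ubiquinol and hands them to cytochrome c, a small soluble carrier. Complex IV (cytochrome c oxidase) passes them on to oxygen, and complex V (ATP synthase) uses the proton gradient built by the chain to make ATP. Each complex is a mosaic: a few hydrophobic core subunits are encoded by the mitochondrial genome, and all other subunits are encoded in the nucleus and imported. NK cells draw on oxidative phosphorylation while they mature and when cytokines activate them.

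Rows of the deposited gene table were taken by symbol: those beginning with Uqcr, Atp5 or Cox4 to Cox8, together with Cyc1, Cycs and the 6 mitochondrial genes mt-Cytb, mt-Co1, mt-Co2, mt-Co3, mt-Atp6 and mt-Atp8. This gave 49 of 27763 rows, of which 10 belong to complex III, 1 is cytochrome c, 18 belong to complex IV and 20 carry a complex V name. Numbered pseudogenes were left out by name, which removed 4 rows. The row Atp5l2-ps, a processed pseudogene whose name carries no number, stayed in. Atp5s and Atp5sl bear the ATP synthase name but are not structural subunits, so 46 rows are subunits or cytochrome c, 40 of them nuclear.

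The DN NK group and the cNK group each had 3 libraries, and all 6 came from the spleen of 6-week-old C57BL/6 mice of wild type genotype. The labels do not spell out DN or cNK or the surface markers behind them, and the series title concerns an immature NK subset resident in the spleen. Nor do they state that each library is a mouse of its own, so the spread behind each p-value is that of the libraries at hand and may be technical. Poly(A) RNA was sequenced in paired reads from a kit that keeps no strand.

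Estimated counts per library totalled 79798234 to 81437724 in DN NK and 84270567 to 89526647 in cNK, and the members took 2.57 to 2.81% and 2.81 to 2.93% of them. The NK identity of the libraries was checked with 12 NK markers, all of which passed the filter on low values. Their summed level was 3515 to 4046 FPKM (fragments per length of transcript and depth of library) in DN NK and 9363 to 9999 FPKM in cNK, and 11 of the 12 fell in DN NK. Markers of other cells moved with the groups as well. Of the B cell markers, 10 of the 10 tested rose in DN NK, with a summed level of 171 to 229 FPKM against 97.6 to 101 FPKM in cNK. The T cell markers rose in 7 of 7, at 648 to 685 FPKM against 498 to 515 FPKM, and the plasma cell markers in 3 of 3, at 52.2 to 61.8 FPKM against 22.5 to 24.1 FPKM. Erythroid markers rose in 3 of 4, at 42.5 to 60.8 FPKM against 33.1 to 40.7 FPKM. Among them Klf1 was not tested and stood at 0 in every library but DN NK replicate 1 (0.130 FPKM). Monocyte and macrophage markers summed to 21.4 to 24.2 FPKM in DN NK and 41.6 to 46.9 FPKM in cNK, with 1 of 2 tested lower. Dendritic cell markers summed to 151 to 161 FPKM and 200.1 to 213 FPKM, with 2 of 3 tested higher and 1 lower. The 4 neutrophil markers in the table stood at 0.135 to 0.606 FPKM in DN NK and at 0 in cNK. Cell cycle genes fell in 11 of 14, and 1 rose, where 30.9% of all tested rows fell and 30.8% rose. The part of any of these in the results below was not tested, and in such bulk samples fewer cells of a type and less RNA per cell cannot be told apart.

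Of the 49 members, 45 were tested, having reached 1 FPKM in 3 or more of the 6 libraries. In DN NK 3 were higher, 20 were lower and 22 did not pass the threshold of an adjusted p of 0.05 (edgeR's quasi-likelihood test, Benjamini-Hochberg over 11690 rows). Across all tested rows 61.7% were called, 30.8% as higher and 30.9% as lower. The members were thus called lower in 44.4% of cases and higher in 6.67%, and their median log2 fold change (DN NK over cNK) was -0.15, against -0.02 over all rows. FPKM of the groups did not overlap for 32 of the 45, or 71.1%, beside 70.3% of all tested rows. The changes were small: 1 member, Cox6a2, passed the test with a change of at least 2-fold, where 12.6% of all rows did. The summed FPKM of all rows in DN NK was 93.8% of that in cNK, so FPKM values lie slightly lower in DN NK than the fold changes, which are scaled by TMM (trimmed mean of M values).

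**Figure D1:**
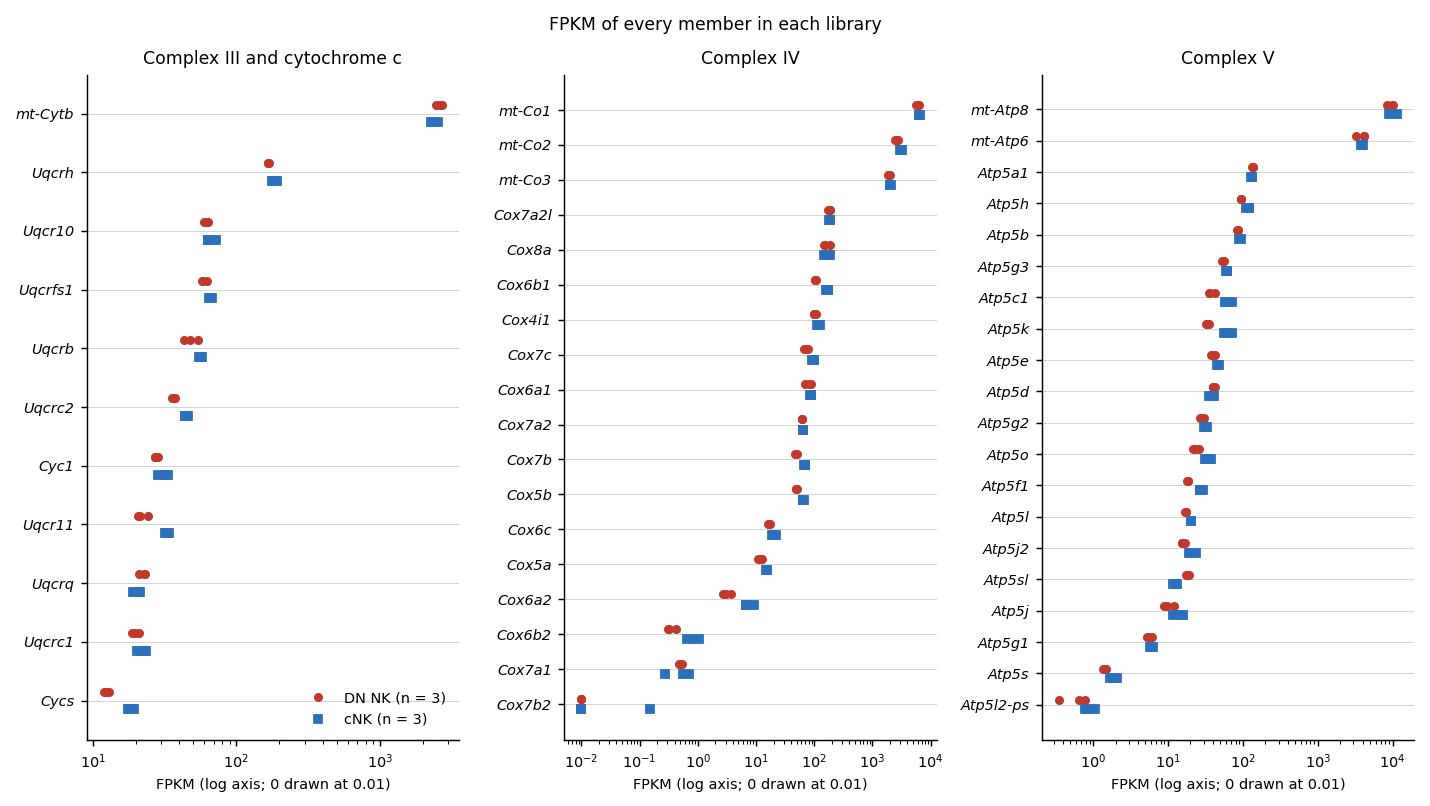
FPKM of all 49 members in each library, on a log axis with 0 drawn at 0.01, in panels for complex III with cytochrome c, complex IV and complex V; red circles are the 3 DN NK libraries and blue squares the 3 cNK libraries. The 6 mitochondrially encoded genes stand at the top, far above the nuclear ones, and most nuclear members lie slightly to the left in DN NK.

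Nuclear and mitochondrially encoded members gave different counts, a difference that was not tested. Of the 37 tested nuclear subunits, cytochrome c included, 19 (51.4%) were lower and 1 (2.70%) was higher, beside 30.9% and 30.8% of all tested rows. Their median log2 fold change was -0.18. Of the 6 mitochondrially encoded members 1 was lower and 1 was higher, with a median of -0.01. In summed FPKM the nuclear subunits and cytochrome c reached 2018 ± 27.2 in DN NK and 2374 ± 13.2 in cNK (SD, n = 3 each), and no libraries overlapped. The mitochondrially encoded members summed to 26572 ± 1994 FPKM in DN NK and 27943 ± 1645 FPKM in cNK, with overlap. As a share of all FPKM the nuclear set took 0.614% in DN NK and 0.678% in cNK, and the mitochondrial set took 8.08% and 7.97%. The ratio of mitochondrial to nuclear summed FPKM was 13.8, 13.9 and 11.8 in DN NK libraries, against 11.4, 11.4 and 12.6 in cNK libraries. DN NK replicate 3 and cNK replicate 3 cross over, so this ratio did not separate the groups. The crossing depends on mt-Atp8, the largest term of the mitochondrial sum, at 8444 FPKM in DN NK replicate 3 and 11626 FPKM in cNK replicate 3.

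**Figure D2:**
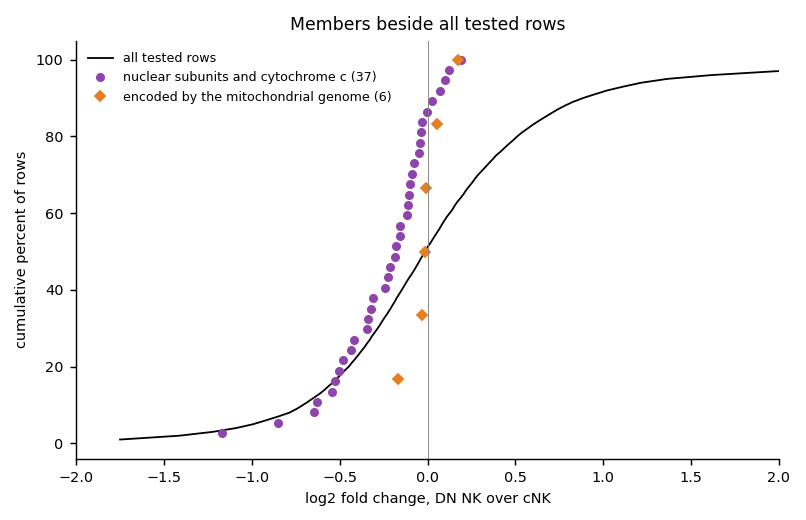
Cumulative percent of rows (vertical axis) against the log2 fold change of DN NK over cNK (horizontal axis) for all 11690 tested rows (line), 37 nuclear subunits with cytochrome c (circles) and 6 mitochondrially encoded members (diamonds). The nuclear members form a steep curve whose middle lies at -0.18, and the mitochondrial ones lie between -0.17 and 0.18.

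Complex III is built on mt-Cytb (cytochrome b), Cyc1 (cytochrome c1) and Uqcrfs1 (the Rieske iron-sulfur protein), with the core proteins Uqcrc1 and Uqcrc2 and small supernumerary subunits around them. All 10 rows were tested: 2 were lower, 2 were higher and 6 did not pass, with a median of -0.10. Both shares lie under those of all tested rows (30.9% lower, 30.8% higher). Nuclear complex III subunits summed to 466 ± 8.71 FPKM in DN NK and 526 ± 7.27 FPKM in cNK (SD, n = 3 each). The small subunit Uqcr11 (chr10:80402997-80406830 on GRCm38, minus strand, protein coding) had 20.6, 21.5 and 24.0 FPKM in DN NK, against 33.5, 34.2 and 31.7 FPKM in cNK. Every DN NK library was below every cNK library, and Uqcr11 was 1.44-fold lower (log2 fold change -0.53, SE 0.0799, adjusted p = 0.000538). The core protein Uqcrc2 had 35.8, 37.4 and 36.1 FPKM in DN NK, against 44.0, 45.8 and 43.7 FPKM in cNK. The groups did not overlap, and it fell by 0.23 on the log2 scale (SE 0.0446, adjusted p = 0.00234); of its exon bases, 19.7% are shared with Pdzd9 on the other strand.

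Both members of complex III called higher changed little. Uqcrq, a small subunit beside cytochrome b, had 22.8, 23.0 and 21.02 FPKM in DN NK, against 21.2, 20.8 and 19.0 FPKM in cNK. The lowest DN NK library lies within the cNK range, and the log2 fold change was 0.19 (SE 0.0713, adjusted p = 0.0431). mt-Cytb had 2719.7, 2645 and 2471 FPKM in DN NK, against 2278, 2407 and 2556 FPKM in cNK. The groups overlap here too (log2 fold change 0.18, SE 0.0668, adjusted p = 0.0477). Leaving out DN NK replicate 1, DN NK replicate 2 or cNK replicate 2 ended both calls. Leaving out cNK replicate 1 ended that of mt-Cytb, and leaving out cNK replicate 3 that of Uqcrq. The call was lost in 8 of 17 alternatives for Uqcrq and in 10 of 16 for mt-Cytb. The adjusted p over all alternatives ran from 0.0187 to 0.216 for Uqcrq and from 0.0146 to 0.254 for mt-Cytb. The other 6 members had log2 fold changes between -0.16 (Uqcrb) and -0.04 (Uqcr10), among them the redox-active Cyc1 at -0.12 and Uqcrfs1 at -0.08, and the hinge protein Uqcrh, the most abundant nuclear member of the complex, at 167 ± 2.03 FPKM in DN NK and 186 ± 6.93 FPKM in cNK.

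**Figure D3:**
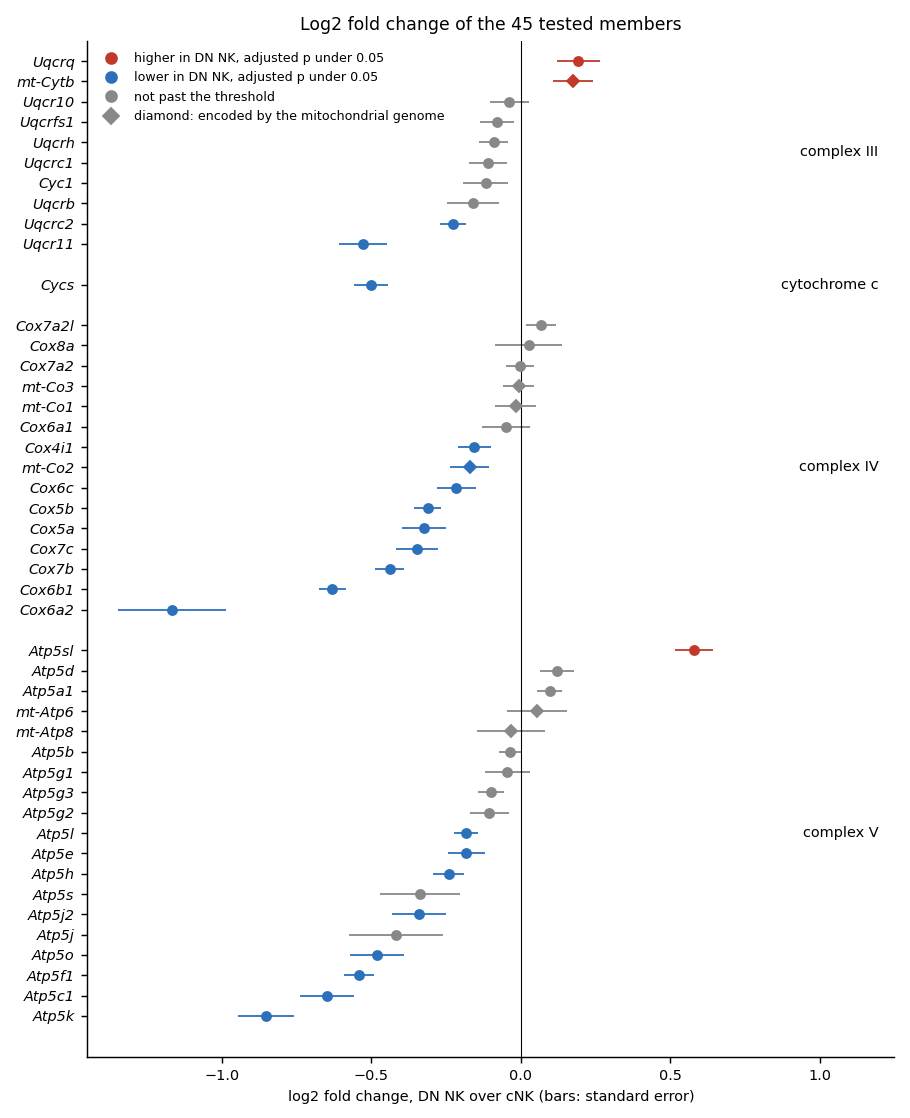
Log2 fold change of DN NK over cNK (horizontal axis) for the 45 tested members, ordered within complex III, cytochrome c, complex IV and complex V; bars are the standard error, red marks members higher and blue members lower at an adjusted p under 0.05, grey those not past it, and diamonds the mitochondrially encoded genes. Blue points run down to -1.17 (Cox6a2) and -0.85 (Atp5k), while the red ones lie at 0.18, 0.19 and 0.58.

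Cytochrome c itself was lower in DN NK. Cycs (chr6:50562563-50566538, minus strand, protein coding), which carries electrons between complexes III and IV and also activates caspases when released into the cytosol, had 12.4, 11.9 and 12.9 FPKM in DN NK, against 17.7, 17.8 and 19.4 FPKM in cNK. The groups did not overlap, and Cycs was 1.42-fold lower (log2 fold change -0.50, SE 0.0578, adjusted p = 0.00011). This row has to be read together with its near-identical copies. The coding sequence of Cycs is identical over 315 bases to that of Gm10053 (chr19:24875686-24876634, plus strand) and differs at 2 bases from that of Gm10108 (chr5:13121448-13121766, minus strand). The first 60 coding bases, from the transcripts of GENCODE release M21 on GRCm38, are shown to make plain how little separates the rows, with capitals where Cycs and Gm10108 differ.
Cycs: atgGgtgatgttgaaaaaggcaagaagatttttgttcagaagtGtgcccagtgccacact
Gm10053: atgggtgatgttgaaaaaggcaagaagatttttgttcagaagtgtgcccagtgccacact
Gm10108: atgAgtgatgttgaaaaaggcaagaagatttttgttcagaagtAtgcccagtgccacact
A read within the coding part of Cycs cannot be assigned to Cycs or Gm10053 by its letters. Gm10053 had 20.2 ± 1.32 FPKM in DN NK and 30.4 ± 3.22 FPKM in cNK (log2 fold change -0.53, SE 0.0889, adjusted p = 0.000971). Gm10108 had 4.58 ± 0.853 FPKM and 8.08 ± 1.52 FPKM (log2 fold change -0.75, adjusted p = 0.0135). With the counts of all copies added, Cycs fell by 0.52 on the log2 scale (SE 0.0634, adjusted p = 0.000157), so the direction and the call were the same with the copies as without them.

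Complex IV had 15 tested members, of which 9 were lower and 0 higher by edgeR. The count of higher members was also 0 at an unadjusted p under 0.05, by DESeq2 and by limma on log2(FPKM + 1). Its catalytic core is mitochondrial: mt-Co1 holds the site where oxygen is reduced, mt-Co2 receives electrons from cytochrome c, and mt-Co3 is a further core subunit. mt-Co1 had 6186, 6219 and 5712 FPKM in DN NK, against 6241, 6503 and 6388 FPKM in cNK (log2 fold change -0.02, adjusted p = 0.84). mt-Co3 had 1920.2, 2001 and 1874 FPKM in DN NK, against 1992, 2094 and 1992 FPKM in cNK (log2 fold change -0.01, adjusted p = 0.912). mt-Co2 had 2657, 2803 and 2482 FPKM in DN NK, against 3045, 3031 and 3252 FPKM in cNK. Its groups did not overlap and it fell by 0.17 on the log2 scale (SE 0.0650, adjusted p = 0.0483), but the call was lost when any library other than DN NK replicate 2 was left out, with its copies pooled (adjusted p = 0.0545) and with median-ratio size factors (0.0628). Over all alternatives its adjusted p ran from 0.00311 to 0.139.

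The supernumerary subunits of complex IV are small nuclear proteins that surround the core, and several exist as tissue isoforms. Of the 12 tested, 8 (66.7%) were lower, beside 30.9% of all tested rows, and 4 did not pass, with a median of -0.26. Summed over all 15 nuclear rows the level was 899 ± 21.2 FPKM in DN NK and 1062 ± 6.58 FPKM in cNK (SD, n = 3 each). Cox6b1 (chr7:30616861-30626151, minus strand, protein coding), which faces the intermembrane space near the cytochrome c site, had 105, 102 and 105 FPKM in DN NK, against 162, 170.3 and 172 FPKM in cNK. The groups lie far apart for their spread, and Cox6b1 was 1.55-fold lower (log2 fold change -0.63, SE 0.0441), with the smallest adjusted p of all members, 7.59e-06. Cox7b, a subunit with a single membrane span, had 46.4, 49.8 and 49.5 FPKM in DN NK, against 66.5, 69.7 and 69.8 FPKM in cNK. It was 1.36-fold lower without overlap (log2 fold change -0.44, SE 0.0473, adjusted p = 7.73e-05).

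Cox7c, Cox5a, Cox5b, Cox6c and Cox4i1 were lower by less, at -0.35, -0.32, -0.31, -0.22 and -0.15 on the log2 scale. The FPKM of the groups did not overlap for any of the 5, nor for 70.3% of all tested rows. The zinc-binding subunit Cox5b, for example, averaged 50.1 ± 0.983 FPKM in DN NK and 64.9 ± 1.74 FPKM in cNK. The calls of Cox6c and Cox4i1 were each lost in 4 of 17 alternatives. Leaving out DN NK replicate 2 or 3 or cNK replicate 2 or 3 ended that of Cox6c, at an adjusted p of up to 0.0701. Leaving out DN NK replicate 1 or 3 or cNK replicate 1 ended that of Cox4i1, at up to 0.106, as did DESeq2. The 4 that did not pass were Cox6a1 (-0.05), Cox7a2 (-0.00), Cox8a (0.03) and Cox7a2l (0.07). Cox8a stood at 163 ± 21.2 FPKM in DN NK and 167 ± 19.3 FPKM in cNK (SE of the log2 fold change 0.113).

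Isoform pairs of complex IV were compared as ratios within each library. Cox6a2 is the form known from heart and skeletal muscle, and Cox6a1 the form found in most tissues. Cox6a2 (chr7:128205435-128206387, minus strand, protein coding) had 3.06, 2.75 and 3.74 FPKM in DN NK, against 6.67, 9.09 and 6.66 FPKM in cNK. Every DN NK library was below every cNK library, and the fall of 2.25-fold was the largest among the 45 tested members (log2 fold change -1.17, SE 0.181, adjusted p = 0.000604); 10.3% of its exon bases are shared with Itgad on the other strand. Cox6a1 had 70.7, 88.8 and 80.4 FPKM in DN NK, against 86.7, 88.3 and 83.7 FPKM in cNK, with overlap. Cox6a2 therefore made up 3.86 ± 0.762% of the pair in DN NK and 7.95 ± 1.20% in cNK (SD, n = 3 each). The log2 ratio differed by -1.11 (exact permutation p = 0.1, the smallest that 3 against 3 allows, and 0.35 adjusted over 7 pairs).

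The other complex IV isoforms were at low levels or gave ratios that overlap between the groups. Cox6b2, known from testis, had 0.416, 0.323 and 0.307 FPKM in DN NK, against 0.898, 1.05 and 0.650 FPKM in cNK, and did not pass the filter. In the fit without a filter it fell by 1.24 on the log2 scale (SE 0.321, adjusted p = 0.00946), beside -1.23 for Cox6a2 in that fit. Its log2 ratio to Cox6b1 differed by -0.61 with overlap (exact permutation p = 0.2, adjusted 0.467). Cox7a1, the muscle form, had 0.539, 0.497 and 0.479 FPKM in DN NK, against 0.567, 0.711 and 0.276 FPKM in cNK, beside its partner Cox7a2 at 61.4, 60.9 and 62.7 FPKM in DN NK and 65.4, 64.3 and 63.7 FPKM in cNK. The muscle form was thus under 1% of that pair in both group means, at 0.813% in DN NK and 0.795% in cNK (difference in log2 ratio 0.13, exact permutation p = 0.9). Cox7a2l is known for tying complex IV to complex III in supercomplexes, but C57BL/6 mice carry a shortened form of the protein that is reported not to do so. It had 187, 189 and 175 FPKM in DN NK, against 184, 187 and 178 FPKM in cNK. By its mean over the 6 libraries it was the most abundant nuclear member of all 3 complexes, and its ratio to Cox7a2 did not separate the groups (difference 0.07, exact permutation p = 0.3, adjusted 0.525). Cox7b2 was listed at 0 in 5 libraries and at 0.148 FPKM in cNK replicate 3.

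Complex V is a rotary machine, and its genes are given by position: the catalytic head in the matrix (Atp5a1 and Atp5b), the central stalk that turns inside it (Atp5c1, Atp5d and Atp5e), the membrane ring of c subunits (Atp5g1, Atp5g2 and Atp5g3), the peripheral stalk that holds the head still (Atp5f1, Atp5h, Atp5j and Atp5o), and small membrane subunits at the interface of the dimer (Atp5k, Atp5l and Atp5j2). Of these 15 nuclear subunits 8 (53.3%) were lower, 0 were higher by edgeR and 7 did not pass, beside 30.9% lower and 30.8% higher of all tested rows. The count of higher subunits was also 0 at an unadjusted p under 0.05, by DESeq2 and by limma. Their summed level was 641 ± 9.80 FPKM in DN NK and 768 ± 0.929 FPKM in cNK (SD, n = 3 each). The count of lower calls is given by position, with some positions joined and no test between positions. The peripheral stalk and the small membrane subunits held 6 of the 8, out of 7 tested. The central stalk held 2, out of 3 tested. The head, the ring and the mitochondrial subunits held 0 of their 7 by edgeR, also 0 at an unadjusted p under 0.05 and by DESeq2, and 2 (Atp5g2 and Atp5g3) by limma on log2(FPKM + 1).

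The head is where ATP is made. Atp5a1, the alpha subunit, averaged 135 ± 0.915 FPKM in DN NK and 132 ± 2.09 FPKM in cNK (log2 fold change 0.10, adjusted p = 0.0767). Atp5b, the beta subunit that carries the active sites, averaged 85.6 ± 0.755 FPKM in DN NK and 91.4 ± 2.06 FPKM in cNK (log2 fold change -0.03, adjusted p = 0.463). The central stalk differed from them: Atp5c1, the gamma subunit whose rotation drives catalysis (chr2:10056016-10080510, minus strand, protein coding), had 35.8, 36.7 and 42.7 FPKM in DN NK, against 57.6, 59.9 and 70.8 FPKM in cNK. It was 1.57-fold lower without overlap (log2 fold change -0.65, SE 0.0897, adjusted p = 0.0004). Within a library its FPKM was 44.8 ± 4.004% of that of Atp5b in DN NK and 68.7 ± 7.48% in cNK, a ratio chosen after the values were seen and therefore not tested. Atp5e (epsilon) fell by 0.18 on the log2 scale (adjusted p = 0.0302). That call was lost without DN NK replicate 1 or 3 and without cNK replicate 1 or 3 (adjusted p up to 0.0918). Atp5d (delta) had a log2 fold change of 0.12 (adjusted p = 0.0931).

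The ring subunit c is made from 3 genes that encode one mature protein behind different import signals, and their levels and ratios are given in turn. Atp5g1 had 5.25, 6.16 and 5.67 FPKM in DN NK, against 6.35, 6.16 and 5.85 FPKM in cNK. Atp5g2 had 26.9, 30.3 and 28.4 FPKM in DN NK, against 33.3, 32.1 and 30.6 FPKM in cNK. Atp5g3 had 53.6, 52.4 and 55.5 FPKM in DN NK, against 60.7, 58.8 and 60.9 FPKM in cNK. Atp5g3 was the most abundant and Atp5g1 the least in every library, and these levels do not overlap between genes. That order holds for the rows as deposited: Gm10175 and Gm10231 match the coding sequence of Atp5g2 at 100% identity, and with their FPKM added Atp5g2 stood at 122 to 155 FPKM, above Atp5g3. Their log2 fold changes were -0.04, -0.11 and -0.10, none past the threshold by edgeR. Under upper quartile scaling, which lowers the median of all rows to -0.10, Atp5g2 (-0.19), Atp5g3 (-0.18) and Atp5b (-0.12) passed it as lower. The log2 ratios of the 3 pairs differed by 0.06 (Atp5g1 to Atp5g2, exact permutation p = 0.1, adjusted 0.35), 0.05 (Atp5g1 to Atp5g3, p = 0.8) and -0.01 (Atp5g2 to Atp5g3, p = 0.9).

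The peripheral stalk was lower in 3 of its 4 genes, where 30.9% of all tested rows were lower. Atp5f1 (subunit b, chr3:105942698-105960099, minus strand, protein coding) averaged 18.4 ± 0.192 FPKM in DN NK and 27.9 ± 1.56 FPKM in cNK and fell by 0.54 on the log2 scale (SE 0.0497, adjusted p = 3.11e-05). Atp5o, the protein that joins the stalk to the head, averaged 23.7 ± 2.27 FPKM in DN NK and 34.6 ± 3.25 FPKM in cNK and fell by 0.48 (SE 0.0920, adjusted p = 0.00217). Its row is uncertain, since 47.9% of its exon bases overlap other annotated genes. These are another entry named Atp5o on the same strand, and D430001F17Rik and Gm15976 on the other strand. The kit keeps no strand. Atp5h (subunit d) averaged 94.7 ± 1.09 FPKM in DN NK and 117 ± 5.93 FPKM in cNK and fell by 0.24 (adjusted p = 0.00369). Atp5j (factor 6) averaged 10.3 ± 1.66 FPKM and 14.3 ± 2.36 FPKM, with overlap, and at -0.42 missed the threshold (SE 0.158, adjusted p = 0.0588); it passed in 7 of 17 alternatives. Summed over the stalk the level was 147.05, 147.2 and 147.1 FPKM in DN NK, against 197, 204 and 179.8 FPKM in cNK. Set against the summed head, the stalk came to 66.7 ± 0.398% in DN NK and 86.7 ± 4.82% in cNK, without overlap and, as above, without a test.

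All 3 small membrane subunits were lower, beside 30.9% of all tested rows. Atp5k (subunit e, chr5:108433244-108434448, minus strand, protein coding), which with subunit g is needed for dimers of the enzyme, had 33.0, 32.0 and 35.8 FPKM in DN NK, against 61.3, 56.6 and 72.0 FPKM in cNK. The highest DN NK library reached well under the lowest cNK library, and Atp5k was 1.80-fold lower (log2 fold change -0.85, SE 0.0943, adjusted p = 8.85e-05). Atp5j2 (subunit f) averaged 15.9 ± 0.872 FPKM in DN NK and 20.9 ± 2.30 FPKM in cNK and fell by 0.34 on the log2 scale (adjusted p = 0.0103). Atp5l (subunit g) averaged 17.2 ± 0.469 FPKM in DN NK and 20.4 ± 0.148 FPKM in cNK and fell by 0.18 (adjusted p = 0.00422). With the counts of its copies pooled, Atp5l fell by 0.23. The copies weigh more in FPKM: with theirs added, Atp5l stood at 54.1 to 60.5 FPKM in DN NK and 74.6 to 89.0 FPKM in cNK.

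Of the mitochondrially encoded subunits of complex V, mt-Atp6 forms the proton path with the ring, and mt-Atp8 is a further membrane subunit. mt-Atp6, the channel subunit a, had 4179.8, 4174 and 3297 FPKM in DN NK, against 3912, 3799 and 4012 FPKM in cNK. The third DN NK library was the lowest of all 6 and the other two the highest, and the change of 0.05 on the log2 scale did not pass (SE 0.1002, adjusted p = 0.665). Without DN NK replicate 3 it was 0.16 and passed the threshold (adjusted p = 0.0459). Gm10925, a copy of mt-Atp6 at 100% identity, was listed at 2243 FPKM in DN NK and 2454 FPKM in cNK (log2 fold change -0.07, adjusted p = 0.489 by edgeR). With the counts of this copy pooled, the log2 fold change of mt-Atp6 was 0.007 (adjusted p = 0.949 by edgeR). mt-Atp8 had 9873, 10058 and 8444 FPKM in DN NK, against 9739, 8961 and 11626 FPKM in cNK (log2 fold change -0.03, SE 0.113, adjusted p = 0.812). The groups overlap. Its 204-base reading frame shares 21.1% of its bases with mt-Atp6.

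**Figure D4:**
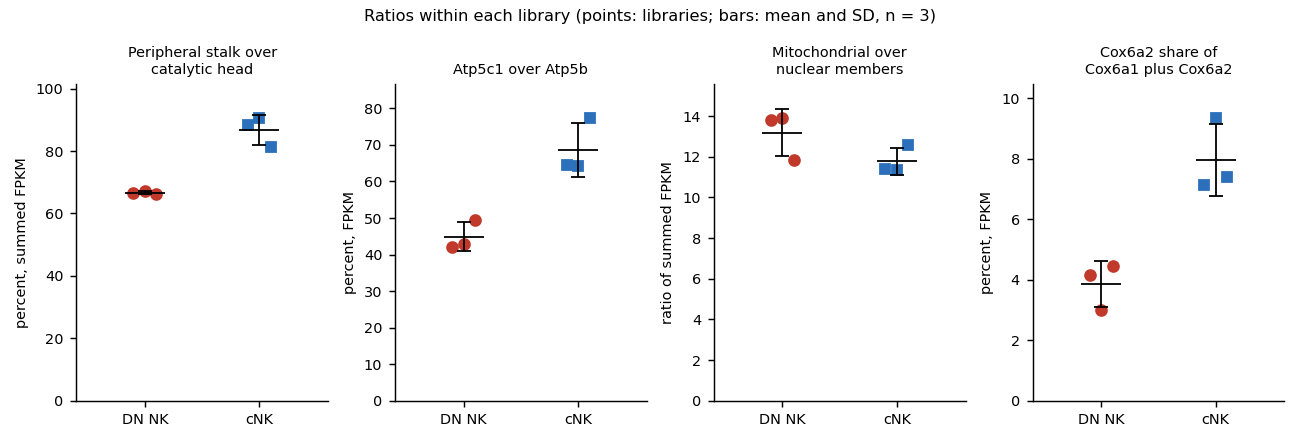
Ratios within each library (points; bars give the mean and SD, n = 3) for DN NK and cNK: peripheral stalk over catalytic head in percent of summed FPKM, Atp5c1 over Atp5b in percent of FPKM, mitochondrially encoded over nuclear members in summed FPKM, and the Cox6a2 share of Cox6a1 plus Cox6a2 in percent. The groups are apart for the stalk (66.7% in DN NK, 86.7% in cNK), Atp5c1 (44.8% and 68.7%) and Cox6a2 (3.86% and 7.95%) and overlap for the mitochondrial to nuclear ratio.

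Atp5s was named as a coupling factor of the enzyme, and Atp5sl for its likeness to Atp5s. Atp5sl, also called Dmac2 and known as an assembly factor of complex I, had 17.4, 17.9 and 18.9 FPKM in DN NK, against 12.8, 13.3 and 11.7 FPKM in cNK. All DN NK libraries were above all cNK libraries, and its rise was 1.49-fold, or 0.58 on the log2 scale (SE 0.0638, adjusted p = 8.58e-05). It was the only member called higher in the main fit and in all 17 alternatives. Atp5s averaged 1.43 ± 0.0603 FPKM in DN NK and 1.89 ± 0.194 FPKM in cNK (log2 fold change -0.34, adjusted p = 0.0571). The pseudogene row Atp5l2-ps had 0.651, 0.781 and 0.353 FPKM in DN NK, against 0.839, 0.789 and 1.08 FPKM in cNK, and was not tested.

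Cycs is not the only member with near-identical copies in the genome. At 95% identity or more over at least 80% of the coding length, 21 of the 49 members matched another annotated gene. For 11 of them the copies, each at its highest library and then summed, exceeded 10% of the member's mean FPKM. The 11 include the pseudogene Atp5l2-ps, for which Atp5l counts among the copies. The 35 copy rows in the table gave 21 tested rows, of which 10 (47.6%) were lower, 0 were higher by edgeR and 11 did not pass. Of all tested rows 30.9% were lower and 30.8% higher. The copies had a median log2 fold change of -0.36. Being near-identical to the members, they may carry the same reads, so their counts do not stand apart from those of the members. The count of higher copies was 0 too at an unadjusted p under 0.05, by DESeq2 and by limma. In both group means 5 of the 35 copy rows stood above their member: Gm10053, Gm10039, Gm10175, Gm10231 and Gm10221. Gm10221, a copy of Atp5l, had 34.8 ± 2.40 FPKM in DN NK and 55.4 ± 6.94 FPKM in cNK (log2 fold change -0.61, adjusted p = 0.0011). Gm10175, a copy of Atp5g2, had 66.1 ± 2.82 FPKM and 75.8 ± 2.80 FPKM (log2 fold change -0.14, adjusted p = 0.0709). Gm10250, a copy of Atp5h and below it, had 10.7 ± 0.905 FPKM and 18.3 ± 2.20 FPKM (log2 fold change -0.71, adjusted p = 0.000876).

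The mitochondrial genes have copies too, in a nuclear insertion on chromosome 1. Gm28661 (chr1:24614885-24615565), the copy of mt-Co2, was listed at 2641 ± 159.7 FPKM in DN NK and 3106 ± 122 FPKM in cNK, and mt-Co2 itself at 2647 ± 160.4 FPKM and 3109.7 ± 124 FPKM. Gm28437 (chr1:24613189-24613971), the copy of mt-Co3, stood at 1922 ± 64.8 FPKM in DN NK and 2016 ± 58.5 FPKM in cNK, beside 1932 ± 64.5 FPKM and 2026 ± 59.1 FPKM for mt-Co3. For both genes the pair of rows is almost equal in every library, so the deposited levels of these members and of their copies cannot be told apart. With all copies summed into their members, 19 members were lower and 3 higher, and mt-Co2 was the call that was lost. That alternative was chosen after seeing the data.

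**Figure D5:**
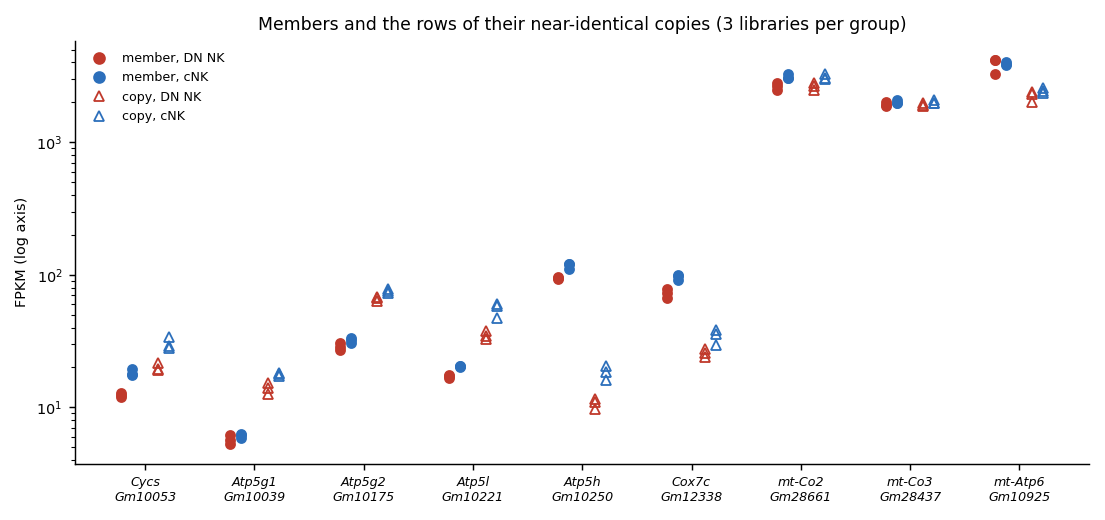
FPKM (log axis) of 9 members (filled circles) and of 1 near-identical copy of each (open triangles) in the 3 DN NK libraries (red) and the 3 cNK libraries (blue). The copies of Cycs, Atp5g1, Atp5g2 and Atp5l lie above their members, those of mt-Co2 and mt-Co3 lie at the same level, and those of Atp5h, Cox7c and mt-Atp6 lie below.

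Nuclear genes of the respiratory chain are known targets of the factors NRF1, GABP (also called NRF2) and YY1, whose motifs stand close to many of their start sites. Promoter windows from RefSeq (GRCm38.p6; 250 bases before to 50 after the start) were found for 34 of the 43 nuclear members; Cox6c, Uqcrb, Cyc1, Atp5a1, Cox6a2, Uqcrc2, Cox4i1, Uqcrq and Atp5l2-ps had none. Both strands were searched for GCGCATGC (NRF1, whose matches on the 2 strands can overlap), CCGGAAGT (GABP) and AAGATGGC (YY1). GCGCATGC was present in 7 of the 34 (20.6%). The shares were 3.05% of 27025 genes with a promoter and 6.64% of the 7843 of these matched to a tested row. CCGGAAGT was present in 4 (11.8%), against 4.31% and 10.6%, and AAGATGGC in 4 (11.8%), against 3.19% and 6.16%. At least 1 motif was found in 14 (41.2%), against 9.91% of all genes and 21.6% of the matched tested genes. Members were also matched by older symbols but the 7843 by current symbol alone, so renamed tested genes may be missing from the 7843. Among members lower in DN NK 7 of 15 held a motif, against 7 of 16 of the other tested members. For GCGCATGC the counts were 4 of 15 and 3 of 16. Longer and looser forms of the NRF1 motif were also searched, a looser one after the first counts were seen; they ordered lower and other members in opposite ways and are not reported here. A match is a stretch of letters and not a shown binding site.

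The 200 bases before the start are printed for 4 members with strong falls that differ in what they hold, with matches in capitals: Atp5k (chr5:108434400-108434599, minus strand) and Cycs (chr6:50566570-50566769, minus strand) have NRF1 matches, overlapping on both strands in Atp5k, Uqcr11 (chr10:80406822-80407021, minus strand) has 1 GABP match, and Cox6b1 (chr7:30626115-30626314, minus strand) has none of these motifs.
Atp5k: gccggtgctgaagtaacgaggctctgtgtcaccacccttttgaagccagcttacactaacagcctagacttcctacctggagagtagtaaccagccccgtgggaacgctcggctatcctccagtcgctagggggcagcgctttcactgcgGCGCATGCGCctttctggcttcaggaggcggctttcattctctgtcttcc
Cycs: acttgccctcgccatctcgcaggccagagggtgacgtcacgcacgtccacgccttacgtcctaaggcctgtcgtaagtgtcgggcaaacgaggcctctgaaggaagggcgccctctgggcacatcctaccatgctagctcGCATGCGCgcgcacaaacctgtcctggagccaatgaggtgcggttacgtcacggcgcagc
Uqcr11: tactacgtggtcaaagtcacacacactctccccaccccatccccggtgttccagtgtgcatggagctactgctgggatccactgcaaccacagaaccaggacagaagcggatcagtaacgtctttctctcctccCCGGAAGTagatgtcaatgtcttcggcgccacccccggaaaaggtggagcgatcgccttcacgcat
Cox6b1: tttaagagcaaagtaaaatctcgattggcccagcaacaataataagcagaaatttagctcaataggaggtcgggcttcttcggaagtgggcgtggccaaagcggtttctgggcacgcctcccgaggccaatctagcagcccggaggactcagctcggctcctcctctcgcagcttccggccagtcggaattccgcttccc
Atp5k was 1.80-fold lower and Cox6b1 1.55-fold lower. The 4 members were chosen for this difference in motifs, and whether the motifs bear on the falls was not tested. Uqcr11 also holds GCGCATGC in the 50 bases after its start.

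Of 37 tested assembly factors of the 3 complexes, 13 (35.1%) were lower, near the 30.9% of all tested rows, and 6 (16.2%) were higher, against 30.8% of all rows. Their median log2 fold change was -0.15. For complex III, 2 of 6 were higher and 2 lower. Hccs, which attaches haem to the c-type cytochromes, had 12.1 ± 0.314 FPKM in DN NK and 8.43 ± 0.0680 FPKM in cNK and rose by 0.58 on the log2 scale (adjusted p = 2.63e-05), while its substrate Cycs fell. Ttc19, which clears fragments of the Rieske protein, rose by 0.53 (adjusted p = 0.000475), and Bcs1l, which inserts that protein, fell by 0.38 (adjusted p = 0.0139). For complex IV, 8 of 25 were lower and 4 higher. Cmc1 and Coa3, which hold newly made mt-Co1 in an assembly intermediate, fell furthest: Cmc1 had 12.4 ± 1.65 FPKM in DN NK and 28.5 ± 1.29 FPKM in cNK (log2 fold change -1.14, adjusted p = 1.81e-05), and Coa3 had 9.96 ± 0.499 FPKM and 20.8 ± 2.04 FPKM (log2 fold change -1.001, adjusted p = 3.38e-05). Coa6, which helps bring copper to mt-Co2, fell by 0.79 (adjusted p = 0.00345). For complex V, 3 of 6 were lower and 0 higher by edgeR, with 0 higher also at an unadjusted p under 0.05, by DESeq2 and by limma. Fmc1, known in yeast as a factor for building the head, had 3.80 ± 0.0943 FPKM in DN NK and 8.62 ± 0.0934 FPKM in cNK (log2 fold change -1.12, adjusted p = 5.63e-05). Atpif1, which inhibits the enzyme when it runs in reverse, fell by 0.57 (adjusted p = 0.000615), and Tmem242, which takes part in building the c ring, by 0.42 (adjusted p = 0.00338).

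The rest of the chain and its regulators were counted in the same fit, in which 30.9% of all rows were lower and 30.8% higher. Complex I fell in 27 of 36 nuclear subunits (median log2 fold change -0.33) and in 1 of 7 mitochondrial ones (median -0.04). Complex II, which is wholly nuclear, fell in 3 of 4: Sdhc by 0.62, Sdha by 0.61 and Sdhb by 0.42 on the log2 scale (adjusted p = 0.000375, 1.97e-05 and 0.000863). Factors that organise cristae and supercomplexes fell in 7 of 11 and rose in 1, with Apool, Opa1 and Apoo lower by 0.60, 0.55 and 0.55 on that scale. Genes of mitochondrial transcription and its regulators were called about as often as all rows, with 7 of 22 (31.8%) higher and 6 (27.3%) lower (median 0.01). The 3 largest changes among them were rises: Tbrg4, which stabilises mitochondrial transcripts, had 16.2 ± 0.0997 FPKM in DN NK and 7.15 ± 0.382 FPKM in cNK (log2 fold change 1.24, adjusted p = 1.41e-06). Gabpb1, a subunit of GABP, had 8.28 ± 2.24 FPKM and 3.82 ± 0.485 FPKM (log2 fold change 1.18, adjusted p = 0.00772). Tfb2m, which opens mitochondrial promoters, had 16.4 ± 1.42 FPKM and 8.83 ± 0.420 FPKM (log2 fold change 0.96, adjusted p = 1.94e-05).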

How the data were processed

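Poly(A) RNA of spleen NK cells was sequenced as paired reads in 3 DN NK and 3 cNK libraries, grouped by their titles. The submitters' processing notes name the tools HISAT, StringTie and edgeR, with GRCm38 (mm10) as build and nothing on versions. The authors' deposited table gives FPKM and a count for each gene and library, per the file headers. The deposited counts proved to be estimated counts: 87.9 to 89.2% of low values (up to 30) equal coverage rounded up, and 1 read pair is worth about 3.77 of them. They were used as deposited, already whole.

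The 11690 rows that reached 1 FPKM in 3 or more of 6 libraries were fitted with edgeR 4.0.16 in R 4.3.3 (TMM factors, robust quasi-likelihood, group as the only term, 2-sided, Benjamini-Hochberg, threshold 0.05). The biological coefficient of variation was 13.5%. The fit was tested on simulated data. Isoform ratios were tested by exact permutation over libraries (scipy 1.17.1). Copies were found with blastn 2.17.0 against GENCODE M21 transcripts, in which all 49 members were found, 44 with the same span. Alternatives used limma 3.58.1 on log2(FPKM + 1) and log2(FPKM + 0.1), DESeq2 1.42.0, other scalings, filters and left-out libraries. No batch is given in the labels. All per-sample columns were used.

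Members and gene lists were chosen with earlier results of these data known. Values in every library are given for the 3 largest changes past the threshold in each complex, the mitochondrial genes, cytochrome c and the isoform sets, and the others by means, ranges and counts. Of genes outside the set, the text names up to 3 from each list, by size of change among those called, and the copies and overlapping genes named were chosen after their values were seen.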

Additional observations from a re-analysis of the deposited data

How the results depend on the processing

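Over 17 alternatives, 16 of the 20 members called lower and 1 of the 3 called higher (Atp5sl) passed in every one, and none of the called members changed sign. The lower calls lost in at least 1 were Atp5e, Cox4i1, Cox6c and mt-Co2, the higher ones Uqcrq and mt-Cytb, and 12 of the 22 members not past the threshold passed in at least 1. The count of lower members, 20, ran from 17 to 30, the highest under upper quartile scaling. The count of higher members, 3, was 1 under upper quartile scaling, 1 with limma on log2(FPKM + 1), 1 with limma on log2(FPKM + 0.1) and 1 without a filter; leaving out 1 library gave 1 (without DN NK replicate 1, DN NK replicate 2 or cNK replicate 2) to 4. The members' median lay 0.10 to 0.16 below that of all rows in every fit but 2, at -0.17 without mitochondrial rows and -0.30 without a filter, where 27763 rows entered. Leaving out 1 library, the difference in log2 ratio ran from -0.26 (without cNK replicate 3) to 0.42 for Cox7a1 to Cox7a2, from -0.025 to 0.11 for Atp5g1 to Atp5g3 and from -0.072 to 0.032 for Atp5g2 to Atp5g3, changing sign in each; the cause was not tested.

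The main fit did not pair libraries by replicate number. Deviations of same-numbered libraries correlated at 0.0362 to 0.162, with 1 of 3 pairs over 0.1. Those of differently numbered libraries correlated at -0.0984 to 0.0565. With so few libraries these correlations cannot decide whether the numbers pair the samples. With a replicate block 18 members were lower and 2 higher; the calls lost were Atp5e (adjusted p = 0.0508), mt-Co2 (0.0589) and mt-Cytb (0.0621).

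The estimated counts overstate independent fragments, but dividing them by the worth of 1 read pair left 20 lower and 3 higher. Of the 4 members that failed the filter on low values, Cox6b2 passed as lower without a filter.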
